A study of Mus musculus with 16 samples.

Results

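Control-shRNA mouse embryonic stem cells (shCtrl-mESCs) were compared with young untransduced mESCs (YP-mESCs) by reduced representation bisulfite sequencing (RRBS), outside the imprinting control regions. The members were chosen by their titles, the 2 libraries titled mESC shCtrl and the 2 titled E14 mESCs Young, 4 of the 16 libraries of the series. The other 12 libraries came from old-passage mESCs (OP-mESCs), 2 old-passage lines that express the stable S33Y form of β-catenin, mESCs with an shRNA against β-catenin (shbcat-mESCs) and embryoid bodies (EBs) made from both shRNA lines. The comparison asks how far the control line of the knockdown experiment differed from the young cells outside the loci for which the series was made.

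Both groups were E14 cells, an established 129/Ola mESC line, kept on gelatine in serum with leukemia inhibitory factor, and neither carried an engineered allele of β-catenin. YP-mESCs were taken at an early passage and were not transduced. shCtrl-mESCs were the same line after transduction with a control shRNA construct. The paper states that its shRNAs were put into young-passage E14 cells. The labels give neither the passage number of the shCtrl-mESCs nor the time since transduction. The groups therefore differed by the transduction, by the culture that followed it and possibly by the preparation of the libraries, and these cannot be told apart. The authors call the YP-mESC replicates biological. Nothing in the labels shows that the 2 replicates of a group were separate cultures, so that p-values measure only the spread between these libraries, which may be technical.

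DNA methylation in mammals lies mostly on the cytosine of CpG dinucleotides. DNMT3A and DNMT3B place it, DNMT1 with UHRF1 copies it at replication, and TET enzymes oxidise it as a step towards its removal. CpG-dense promoters, called CpG islands, are mostly unmethylated, CpG-poor DNA is mostly methylated, and mESCs in serum carry many stretches in between. RRBS cuts DNA with a restriction enzyme and reads the ends of short fragments, so that it sees mostly CpG-dense DNA.

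The libraries had 33114520 and 33296468 reads on CpGs in shCtrl-mESCs and 28814526 and 26807533 in YP-mESCs. With the reads of both strands summed and at least 10 reads in all 4 libraries, 633331 CpGs were compared. Their median depth was 31, 30, 36 and 29 reads in the same order of libraries. Chromosome 13 is absent from the comparison because it held no measured CpG in replicate 2 of YP-mESCs. The unmethylated mitochondrial DNA gave 0.319% and 0.290% methylated reads in shCtrl-mESCs against 0.260% and 0.242% in YP-mESCs. Across CpGs, Pearson's r was 0.985 between the shCtrl-mESC replicates, 0.981 between the YP-mESC replicates and 0.963 to 0.964 between the groups, as a description over CpGs of shared libraries. Promoters of pluripotency markers, 9 of 10 of which were measured, had at most 2.68% in shCtrl-mESCs and at most 11.6% in YP-mESCs, and 0 of them were called by the quasi-binomial F test. RNA was not measured, so the markers cannot show the cell type.

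The sequences below show where the difference sat along the DNA. They are read from the mm9 reference, plus strand. In the first 3, chosen from the region with the most changed CpGs, a called promoter and a promoter of the germline list, the capitals mark CpGs that were more than 25 points higher in shCtrl-mESCs. They lie in a coding exon of Zfp316 at chr5:144015388-144015637, in a coding exon and intron of Zfp563 at chr17:33226462-33226711, and in an intron of Sycp3 at chr10:87922472-87922637.
Zfp316: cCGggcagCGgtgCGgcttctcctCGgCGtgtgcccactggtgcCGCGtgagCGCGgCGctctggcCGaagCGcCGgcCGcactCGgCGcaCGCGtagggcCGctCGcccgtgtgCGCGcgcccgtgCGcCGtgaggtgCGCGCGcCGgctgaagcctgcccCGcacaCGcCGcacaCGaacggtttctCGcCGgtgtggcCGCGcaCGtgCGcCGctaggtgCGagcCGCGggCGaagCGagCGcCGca
Zfp563: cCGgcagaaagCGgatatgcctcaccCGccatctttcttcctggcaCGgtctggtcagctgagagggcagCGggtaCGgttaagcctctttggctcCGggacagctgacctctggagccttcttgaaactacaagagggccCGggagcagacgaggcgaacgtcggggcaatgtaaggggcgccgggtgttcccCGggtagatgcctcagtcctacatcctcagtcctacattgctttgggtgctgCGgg
Sycp3: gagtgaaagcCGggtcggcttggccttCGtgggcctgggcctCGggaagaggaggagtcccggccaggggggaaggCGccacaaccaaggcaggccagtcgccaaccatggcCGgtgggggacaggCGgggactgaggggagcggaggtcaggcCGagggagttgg

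In the next 2, both from regions called lower, the capitals mark CpGs that were more than 25 points lower in shCtrl-mESCs. They lie between genes at chr3:9334159-9334357, 55908 bp from the nearest start, that of Zbtb10, and in an intron of Zfp809 at chr9:22031262-22031503. They hold 10 and 8 measured CpGs in 199 and 242 bases, all of them in capitals.
Zbtb10: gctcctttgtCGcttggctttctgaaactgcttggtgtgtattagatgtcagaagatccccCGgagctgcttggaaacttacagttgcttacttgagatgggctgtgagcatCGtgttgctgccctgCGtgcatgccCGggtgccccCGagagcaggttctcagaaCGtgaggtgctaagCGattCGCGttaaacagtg
Zfp809: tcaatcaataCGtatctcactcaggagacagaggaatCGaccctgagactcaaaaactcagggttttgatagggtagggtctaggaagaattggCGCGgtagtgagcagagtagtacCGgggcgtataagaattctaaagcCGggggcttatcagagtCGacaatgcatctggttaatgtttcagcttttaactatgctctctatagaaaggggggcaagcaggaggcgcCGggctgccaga

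The last stretch is from the start of Ppia, a housekeeping gene that encodes cyclophilin A, at chr11:6316011-6316260, 132 bp from the nearest annotated start. It was chosen after its values were seen. Its capitals mark CCGG sites that have another CCGG less than 52 bp away.
Ppia: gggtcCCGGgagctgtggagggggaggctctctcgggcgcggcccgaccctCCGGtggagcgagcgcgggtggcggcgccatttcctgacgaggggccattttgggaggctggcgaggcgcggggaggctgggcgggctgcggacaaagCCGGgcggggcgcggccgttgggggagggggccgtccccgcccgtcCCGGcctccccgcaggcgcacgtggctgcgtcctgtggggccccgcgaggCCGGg

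In the Zfp316 stretch, 46 of the 50 measured CpGs are in capitals, with a mean of 41.2% and 39.4% in the shCtrl-mESC libraries against 3.26% and 2.37% in the YP-mESC libraries. The 10 CpGs in capitals of Zfp563 had 59.5% and 67.3% against 8.64% and 11.1%. In both genes a stretch that was nearly unmethylated in YP-mESCs was partly methylated in shCtrl-mESCs, at almost every CpG read. The Ppia stretch differed from these. Its 5 CpGs inside the CCGG sites in capitals had 17.8% and 17.4% in shCtrl-mESCs against 0.720% and 0.408% in YP-mESCs. The other 24 CpGs between them had 0.266% and 0.00% against 0.204% and 0.00%, so that the 4 libraries did not differ beyond 1 point between the sites.

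The pattern of Ppia held across unmethylated DNA. In windows of 1000 bp with at least 50 CpGs in the reference and a mean level under 20%, CpGs inside a CCGG 44 to 47 bp from the next had 25.7% and 22.6% in shCtrl-mESCs, and 1.44% and 1.43% in YP-mESCs. At 20 to 23 bp the shCtrl-mESC libraries had 4.02% and 3.55%, with 0.953% and 1.03% in YP-mESCs. At 52 to 55 bp the 4 libraries had 1.59%, 1.61%, 1.56% and 1.58%. At 48 to 51 bp the shCtrl-mESC libraries had 10.9% and 9.51%, so that the excess ended near 52 bp and was not seen in any larger bin of the plot of level against the distance between sites. In the same windows, CpGs outside CCGG had 1.17% and 1.18% in shCtrl-mESCs against 0.916% and 0.907%.

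**Figure D1:**
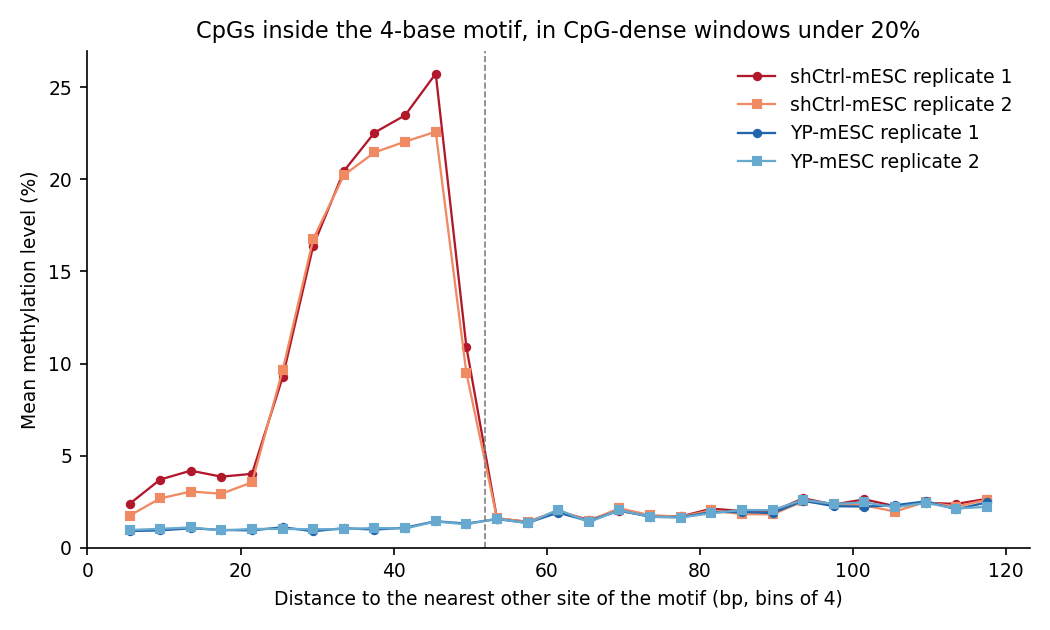
Mean methylation level (%, y axis) of CpGs inside a CCGG against the distance to the nearest other CCGG (bp, x axis, bins of 4 bp), in windows under 20% with at least 50 CpGs. Each line is a library, and the dashed line marks 52 bp. The shCtrl-mESC libraries reach 25.7% and 22.6% at 44 to 47 bp, while the YP-mESC libraries stay at or below 2.61% throughout.

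All 8 libraries of cells with an shRNA showed the excess, and the 8 libraries without an shRNA did not. Over the 34430 CpGs in closely spaced CCGG of these windows, shbcat-mESCs had 11.4% and 11%, shCtrl-EBs had 12.8% and 13.9% and shbcat-EBs had 13.3% and 14.9%. OP-mESCs had 0.696% and 0.688%, and the 4 libraries of the S33Y lines had 0.866% to 1.21%. Transduction and the preparation of the shRNA libraries fall together here and cannot be told apart. CpGs inside closely spaced CCGG made up 66466 of those compared (10.5%). Each result is therefore given over all CpGs and again over the 566865 CpGs outside these sites, a choice made after the data were seen.

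shCtrl-mESCs had more methylation than YP-mESCs. The mean level over all CpGs was 30.2% and 30.1% in the shCtrl-mESC libraries and 27.6% in both YP-mESC libraries, a difference of 2.54 points. Inside closely spaced CCGG the levels were 32.5% and 31.7% against 21.6% and 21.8%, a difference of 10.4 points. Outside them they were 29.9% in both shCtrl-mESC libraries against 28.3% in both YP-mESC libraries, a difference of 1.62 points. The groups did not overlap in any of these, and the differences were larger than the gaps between replicates. With 2 libraries against 2, a two-sided exact permutation test gave p = 0.33, the smallest it can give.

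Fewer CpGs had intermediate levels in shCtrl-mESCs than in YP-mESCs, and more had levels over 80%. With closely spaced CCGG left out, CpGs from 20% to 80% made up 13% and 12.9% of CpGs in shCtrl-mESCs and 17% in both YP-mESC libraries. CpGs over 80% made up 23.6% and 23.7% against 19.6% and 19.5%. The share under 20% was 63.4% in all 4 libraries. Over all CpGs the share under 20% was 62.0% and 62.4% against 64.1% in both, so that this share differed between the groups only with the closely spaced sites included. The levels of these low CpGs differed without them too, with 1.42% in both shCtrl-mESC libraries against 1.24% in both YP-mESC libraries outside any CCGG, and 2.75% and 2.70% against 3.67% and 3.68% inside the widely spaced CCGG.

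A single CpG was called where it differed by more than 25 points and its Benjamini-Hochberg adjusted p, from a quasi-binomial model with a shared overdispersion of 1.1, lay under 0.05. In shCtrl-mESCs, 16204 CpGs (2.56%) were called higher and 2226 (0.351%) lower, so that 87.9% of the calls were higher. Without the closely spaced sites, 5298 (0.935%) were higher and 1608 (0.284%) lower. In the fit over all CpGs, the 41306 CpGs at intermediate levels outside any CCGG had 57.8% and 58.0% in shCtrl-mESCs against 51.1% in both YP-mESC libraries, with 4140 called higher and 794 lower. The 37880 intermediate CpGs inside the other, more widely spaced CCGG had 59.3% and 59.5% against 58.5% and 58.3%, a difference of 0.976 points, with 1569 higher and 1094 lower. Both classes lay higher in shCtrl-mESCs, and calls in the 2 directions were nearer in number inside the widely spaced sites. Without YP-mESC replicate 1, 1422 CpGs were called lower. The lower calls numbered 1478 without YP-mESC replicate 2, 1305 without shCtrl-mESC replicate 1 and 1452 without shCtrl-mESC replicate 2.

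By annotation, outside closely spaced CCGG, promoter CpGs had 5.14% in both shCtrl-mESC libraries against 4.59% and 4.58% in YP-mESCs. Exons had 48.8% and 48.9% against 45.8% in both YP-mESC libraries. Introns had 56.6% and 56.7% against 54.3% and 54.2%, and DNA between genes had 61.6% and 61.7% against 58.7% and 58.8%. In each class the shCtrl-mESC libraries lay above the YP-mESC libraries, with the smallest difference at promoters, 0.555 points, and the largest in exons, 3.08 points. Over CpGs of single chromosomes, the difference was 1.33 points on chromosome 11, 1.63 points on the X chromosome and 1.85 points on chromosome 6. As means of windows of 1000 bp, all 19 chromosomes with at least 300 windows were higher in shCtrl-mESCs, from 0.927 points on the X chromosome to 2.31 points on chromosome 6.

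Windows of 1000 bp with at least 5 CpGs were tested with a quasi-binomial F test whose overdispersion was moderated across windows with limma, and a call needed more than 10 points of difference besides an adjusted p under 0.05. Of 31495 windows, 3096 (9.83%) were called higher in shCtrl-mESCs and 627 (1.99%) lower. Both shCtrl-mESC libraries lay above both YP-mESC libraries in 59.1% of windows and below in 10.3%. When these sites were left out, 2114 of 28916 windows (7.31%) were higher and 513 (1.77%) lower. Of the 3096 windows called higher, 2468 could be measured outside these sites and 2075 of them were called again. Of the 627 called lower, 557 could be measured and 491 were called again. Fewer windows were called without an shCtrl-mESC library, 1959 higher and 339 lower without replicate 1, and 1963 higher and 289 lower without replicate 2.

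Most of the called windows had intermediate levels. The 4997 windows from 20% to 80% outside closely spaced CCGG had a mean of 57.2% and 57.3% in shCtrl-mESCs against 51.5% and 51.4% in YP-mESCs, a difference of 5.73 points (exact permutation p = 0.33, the smallest it can give). Among them, 1464 windows were called higher (29.3%) and 385 lower (7.70%). With all CpGs the difference was 6.46 points over 5873 windows, with 2012 higher and 489 lower. Without shCtrl-mESC replicate 1 these counts were 1326 and 268, and without replicate 2 they were 1300 and 231. Between the shCtrl-mESC replicates, 6.66% of the windows outside closely spaced CCGG differed by more than 10 points, and 10.5% between the YP-mESC replicates. Between a library of each group, 45.4% to 46.5% did, so the spread between groups exceeded that within them.

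Windows under 20% differed by 0.211 points once closely spaced CCGG were left out. The 17884 such windows had 2.36% in both shCtrl-mESC libraries against 2.15% in both YP-mESC libraries, with 144 called higher and 123 lower. Without YP-mESC replicate 2 the difference was 0.146 points on the same chromosomes, and lower calls outnumbered higher ones. With all CpGs, 18714 windows had 3.56% and 3.45% against 2.23% in both, with 338 higher and 130 lower. Refitted over all CpGs without 1 library, the test called 69 windows under 20% lower without shCtrl-mESC replicate 1, 56 without shCtrl-mESC replicate 2 and 235 without YP-mESC replicate 1. Windows over 80% were also higher in shCtrl-mESCs. Outside the sites, 6035 of them had 90.8% in both shCtrl-mESC libraries against 86.2% and 86.3% in YP-mESCs, with 506 called higher and 5 lower. With all CpGs 746 of 6908 windows over 80% were higher and 8 lower. The higher count was 312 without shCtrl-mESC replicate 1, 293 without shCtrl-mESC replicate 2, 1365 without YP-mESC replicate 1 and 1124 without YP-mESC replicate 2.

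Across the intermediate range, the share of windows called higher was 19.2% from 20% to 30% and 34.6% from 50% to 60%. The share called lower was 15.8% from 30% to 40% and 1.48% from 70% to 80%. Calls in both directions were therefore frequent in the lower part of the range, while the upper part had almost only higher calls. Of the windows that were intermediate in the mean of YP-mESCs, 1363 (24.9%) were over 80% in shCtrl-mESCs and 251 (4.59%) were under 20%. Windows also moved into the intermediate range. Of those under 20% in YP-mESCs, 443 (2.46%) were intermediate in shCtrl-mESCs, as were 155 (2.86%) of those over 80%. The classes of the YP-mESC mean were set on values that enter the comparison, so these shares are a description.

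By CpG density, over all levels and outside closely spaced CCGG, windows with fewer than 20 CpGs per 1000 bp differed by 2.75 points, those with 20 to 49 by 3.19 points and those with at least 50 by 0.522 points, so that the densest class differed least. Within intermediate windows the order was another. The 1384 intermediate windows with fewer than 20 CpGs had 61.1% and 61.4% in shCtrl-mESCs against 59.9% and 59.7% in YP-mESCs, a difference of 1.48 points. The 3349 intermediate windows with 20 to 49 CpGs had 56.7% in both shCtrl-mESC libraries against 49.5% in both YP-mESC libraries, a difference of 7.20 points. The 264 intermediate windows with at least 50 CpGs had 42.1% and 42.3% against 32.8% and 33%, a difference of 9.35 points. In all 3 classes the groups did not overlap, and the denser classes differed by more than the sparse class by several times the gap between replicates. The differences between the classes themselves were not tested.

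In finer steps the difference was -2.96 points over 40 windows with fewer than 10 CpGs, where the shCtrl-mESC libraries lay below the YP-mESC libraries. It was 1.61 points at 10 to 19 CpGs, 5.33 at 20 to 29, 9.83 at 30 to 39 and 10.3 at 40 to 49, and stayed between 6.14 and 11.9 in the 3 denser steps. The sign thus turned at the sparse end of the intermediate windows. Over all levels, the 163 windows with fewer than 10 CpGs were 1.46 points higher in shCtrl-mESCs. Among windows with fewer than 20 CpGs, the 2968 over 80% were 3.96 points higher. Those under 20% lay lower in shCtrl-mESCs, where 374 windows had 5.76% and 5.69% against 7.98% and 7.78%, with 4 called higher and 31 lower.

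Over all levels and all CpGs, 568 of the windows with fewer than 20 CpGs were called higher and 227 lower, 2286 and 381 of those with 20 to 49, and 242 and 19 of those with at least 50. The counts outside closely spaced CCGG were 336 and 167, 1629 and 323, and 149 and 23. Leaving out a library moved the counts over all CpGs by over 1.5 times in the sparse class, from 568 and 227 to 301 and 115 without shCtrl-mESC replicate 1 and 294 and 88 without replicate 2. In the middle class the counts over all CpGs went from 2286 and 381 to 1458 and 208 without shCtrl-mESC replicate 1, and 1466 and 190 without replicate 2. The lower calls of the densest class were 11 without shCtrl-mESC replicate 2.

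**Figure D2:**
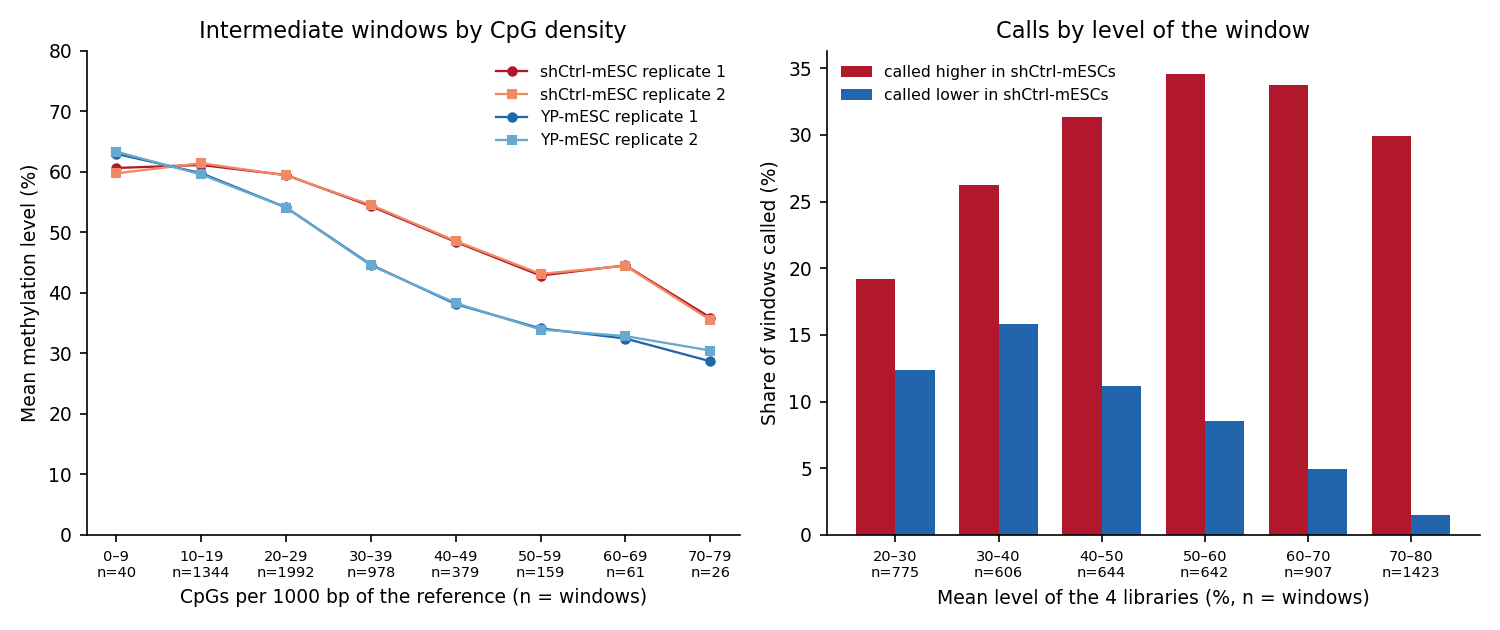
Left, mean methylation level (%, y axis) of intermediate windows against CpGs per 1000 bp of the reference (x axis) in the 4 libraries. Right, share of intermediate windows (%, y axis) called higher or lower in shCtrl-mESCs against the mean level of the 4 libraries (x axis). Closely spaced CCGG are left out. The shCtrl-mESC lines lie below the YP-mESC lines under 10 CpGs and 9.83 to 10.3 points above them at 30 to 49 CpGs.

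Among the called windows with the largest differences, several lay at gene starts. The window at the start of Atf7ip, a cofactor of the histone methyltransferase SETDB1, on chromosome 6 from 136467001 to 136468000, had 86.7% and 93.0% in shCtrl-mESCs against 35.7% and 28.9% in YP-mESCs. The window at the start of Vrtn, a gene of vertebral number, had 63.7% and 72.1% against 21.4% and 12.7%. A window 25722 bp from H2-M10.4, a class I histocompatibility gene of a large family, had 93.8% and 91.2% against 28.0% and 30.6%, the largest difference among the named windows, 63.2 points. It held fewer than 5 CpGs outside closely spaced CCGG, as did those near Gria3, Agtr1b, Rabl2, Pramef8 and Eml2, so that 6 of the 10 were not measured there. The other 4 stayed called. Those at Atf7ip and 1700094C10Rik had no measured CpG in such sites, so that nothing was left out there.

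Of the 10 lower windows, 7 lay wholly in introns. In an intron of Csrp2, which encodes a LIM domain protein of muscle cells, the window on chromosome 10 from 110361001 to 110362000 had 16.8% and 15.1% in shCtrl-mESCs against 67.4% and 55.3% in YP-mESCs. Introns of Mreg, melanoregulin, and of Sorcs2, a receptor of the sortilin family, had windows lower by 39.7 and 39.3 points. In Sik1, a salt-inducible kinase, a window had 5.13% and 2.33% against 43.6% and 40.8%. All 10 windows, from 32.8 to 45.3 points lower, stayed called outside closely spaced CCGG, and they held 13 to 30 CpGs in the reference. Only those at Sorcs2, Sik1 and Zfp809 had measured CpGs in such sites. For the rest the CpGs were the same, so that the call was no second check. Every one of them had both shCtrl-mESC libraries below both YP-mESC libraries, as the rule for naming required.

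Regions were runs of at least 10 CpGs, less than 2 kb apart, that each differed by more than 25 points in the same direction. Over all CpGs, 18710 (2.95%) were higher by more than 25 points and 3300 (0.521%) lower. They made up 63 regions higher in shCtrl-mESCs and 7 lower. The rule used the difference itself, so the regions are a description with no test. The higher regions held 935 changed CpGs among 1418, had a median length of 670 bp and lay on 15 chromosomes. Of these, 51 overlapped a gene, 29 lay within 1 kb of a start and 33 touched a coding exon. Of the changed CpGs, 824 of 935 in the higher regions and 75 of 87 in the lower lay outside closely spaced CCGG. All 63 higher and 7 lower regions kept their direction there, which the choice of these CpGs favours. Of them, 48 and 6 still differed by more than 25 points. Without YP-mESC replicate 1, 102 regions were higher.

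The region with the most changed CpGs lay in a coding exon of Zfp316, which encodes a zinc finger protein, at chr5:144014923-144016993. Of its 133 CpGs, 125 were changed, with 43.7% and 43.4% in shCtrl-mESCs against 5.07% and 5.17% in YP-mESCs. Outside closely spaced CCGG the levels were 43.1% and 42.7% against 5.25% and 5.27%. The same exon had 48.0% and 44.2% in shbcat-mESCs and 52.5% to 54.2% in the 4 EB libraries. It had 2.63% and 2.36% in OP-mESCs and 2.70% to 4.91% in the S33Y lines, so that the libraries of shRNA cells and those of other cells did not overlap at this exon. The region was chosen for its difference between shCtrl-mESCs and YP-mESCs, so their part of this gap is set by the choice. A further region 17791 bp from the start of Zfp316, at chr5:144049492-144050161, had 40.5% and 39.1% against 14.3% and 13.4%.

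Other higher regions lay at genes of many kinds. At Phldb3, which encodes a pleckstrin homology-like domain protein, 30 of 34 CpGs at chr7:25395405-25396616 were changed, with 53.7% and 55.6% in shCtrl-mESCs against 12.8% and 14.4% in YP-mESCs. At Hcn2, a pacemaker channel, the region at chr10:79197948-79198732 had 87.1% and 88.2% against 63.4% and 59.9%. At Hoxd3, a homeobox transcription factor, the region at chr2:74577037-74579182 had 46.6% and 48.8% against 24.7% and 23.7%. The groups did not overlap at any of these, which the rule that chose the regions favours.

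The other regions named by the rule had these levels, where a gap between the groups is again favoured by the choice. Repin1, a zinc finger gene, had 60.2% and 59.1% against 34.8% and 29.4%. Lypd3, which encodes a membrane-anchored surface protein, had 52.1% and 48.8% against 22.6% and 21.5%. Acnat1, an acyltransferase of fatty acid metabolism, had 63.4% and 62.5% against 35.9% and 32.4%. The uncharacterised genes 3830431G21Rik and 1190002H23Rik had regions higher by 34.2 and 23.4 points. Tnfrsf1a, a receptor of tumour necrosis factor whose promoter is named below, was not among the 10, and had all 15 CpGs of its region changed, with 74.5% and 73.6% against 26.0% and 26.3%.

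The 7 lower regions had a median of 19.5% in shCtrl-mESCs and 47.9% in YP-mESCs. Zfp809, a KRAB zinc finger protein known to direct silencing to retroviral sequences in mESCs, had 9.37% and 7.29% in shCtrl-mESCs against 42.3% and 45.6% in YP-mESCs at chr9:22031258-22031601, in an intron. Setd1b, a histone H3K4 methyltransferase, had 21.5% and 26.8% against 53.4% and 44.6%. The region 55871 bp from Zbtb10, a zinc finger gene, had 16.3% and 13.8% against 56.0% and 56.3% at chr3:9334122-9334391. At all 3 the groups stood well apart, as the choice of the regions favours.

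At the Zbtb10 and Zfp809 regions the other groups did not split by shRNA. The Zbtb10 region had 14.4% and 14.9% in shbcat-mESCs and 11.3% and 14.7% in OP-mESCs, but 51.1% and 52.9% in OP-S33Y #1. The Zfp809 intron had 5.86% and 8.33% in OP-mESCs, 6.25% to 14.3% in the S33Y lines and 30.9% to 44.3% in EBs. Both regions were chosen for high levels in YP-mESCs, which favours YP-mESCs over any other group there.

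The other lower regions lay at Pard6b, a cell polarity gene, with 18.8% and 20.2% against 45.5% and 50.3%, and at Nr4a1, an orphan nuclear receptor, with 16.6% and 15.0% against 48.6% and 46.6%. Ston2, an endocytosis adaptor, had 27.9% and 28.0% against 53.4% and 51.6%. Csf2ra, a subunit of the receptor for granulocyte-macrophage colony-stimulating factor, had 21.4% and 23.4% against 36.7% and 35.9%, with only 15 of its 66 CpGs changed.

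**Figure D3:**
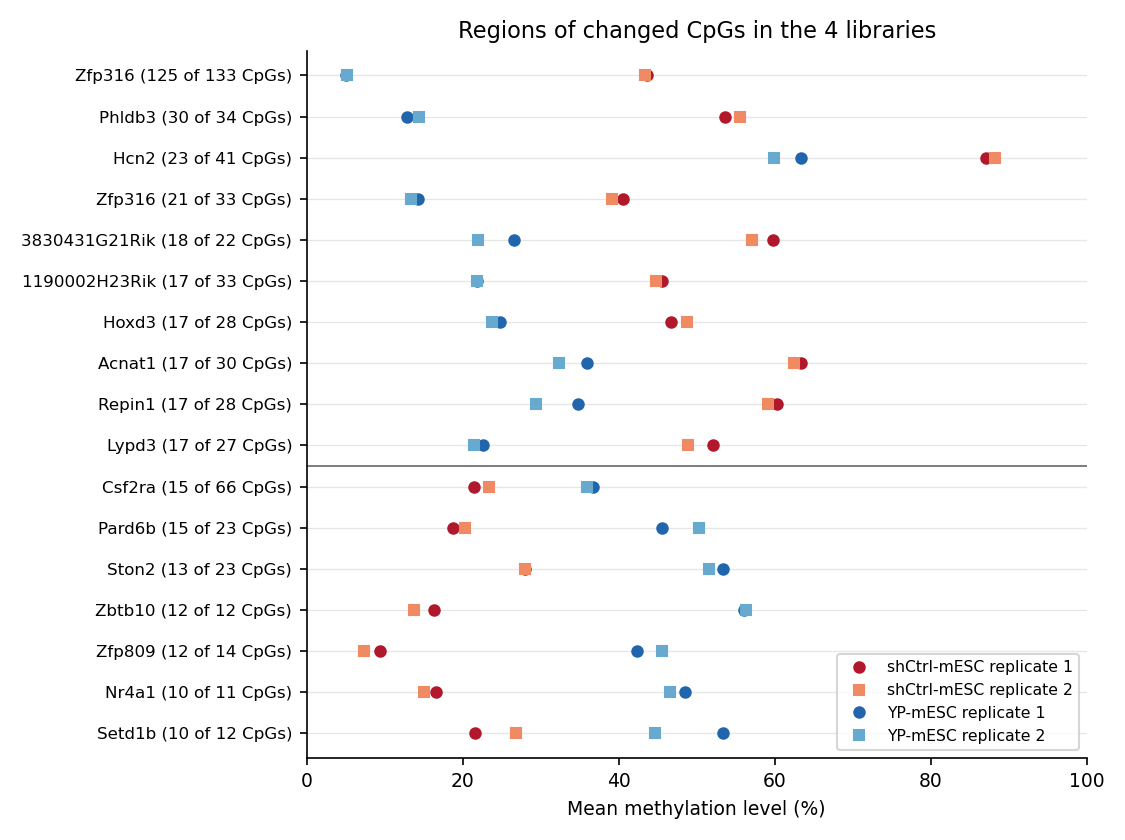
Mean methylation level (%, x axis) of the 10 higher regions with the most changed CpGs (above the line) and the 7 lower regions (below it) in the 4 libraries, named by the gene they overlap or the nearest start. The 2 libraries of a group lie close together in most regions, less so the YP-mESC libraries at Setd1b. Zfp316, in its coding exon, has 43.7% and 43.4% against 5.07% and 5.17%.

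Promoters, from 1000 bp before to 500 bp after a start with at least 3 CpGs, were tested as the windows were. Of 14066 promoters, 583 (4.14%) were called higher in shCtrl-mESCs and 68 (0.483%) lower. Without closely spaced CCGG, 272 of 13811 (1.97%) were higher and 42 (0.304%) lower, and the median difference over all promoters fell from 1.06 to 0.101 points. Of the higher promoters, 506 could be measured outside these sites and 268 of them were called again, and of the lower promoters 39 of 65 were. When an shCtrl-mESC library was left out, the number of calls depended on how the overdispersion was set. The weight of the moderation (prior degrees of freedom) was 13.4 with all libraries. It was 2.36 without shCtrl-mESC replicate 1 and 1.72 without shCtrl-mESC replicate 2. Without either of them the quasi-binomial F test called 0 promoters higher and 0 lower. At an unadjusted p under 0.05 and over 10 points there were then 483 higher and 56 lower without replicate 1, and 479 and 48 without replicate 2. A test with a shared overdispersion called 488 and 57, and 564 and 61.

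Most called promoters had intermediate levels. The 917 promoters from 20% to 80% outside closely spaced CCGG had 52.4% and 52.2% in shCtrl-mESCs against 45.2% and 44.5% in YP-mESCs, with 192 called higher and 21 lower. The 12357 promoters under 20%, by far the largest class, had 1.68% in both shCtrl-mESC libraries against 1.41% and 1.40%, with 50 higher and 21 lower.

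The promoters named by the rule had the largest differences among those called. Gria3, a subunit of AMPA glutamate receptors, had 72.0% and 77.1% in shCtrl-mESCs against 9.01% and 19.9% in YP-mESCs over 8 CpGs. Atf7ip had 86.7% and 93.0% against 35.7% and 28.9%, from the CpGs of the window above. Lmo3, a LIM-only protein, had 75.1% and 70.2% against 20.5% and 13.9%, and shares its CpGs with A830011K09Rik on the other side of the start. The YP-mESC libraries of Gria3 differed by more than 10 points, and the gap to shCtrl-mESCs was several times that.

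Naa11, an N-terminal acetyltransferase known from testis, had 71.6% and 71% in shCtrl-mESCs against 23.2% and 19.6% in YP-mESCs over 15 CpGs, which the noncoding 4930467D21Rik shares. Zfp563, a zinc finger gene, had 59.2% and 66.9% against 8.61% and 11.8%. Ldhd, a D-lactate dehydrogenase, had 87.7% and 92.8% against 42.2% and 43.7%. Pramef8, of a multicopy family, had 60.7% and 59.9% against 6.27% and 7.88%, and reads of near-identical copies can be split between its members. At these 4 genes the lower shCtrl-mESC library stood at least 40 points above the higher YP-mESC library.

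The other promoters named by the rule differed by 46.8 to 57.3 points. They were those of Vrtn, Tnfrsf1a, Tmem26, Gabre, which encodes a GABA receptor subunit, AI429214 and the predicted microRNA AL844871.1. Outside closely spaced CCGG, 14 of the 15 stayed called, while AI429214 had no CpG left. Adjusted p-values of the quasi-binomial F test ran from 2.56e-08 at Naa11 to 3.97e-04 at Gabre.

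Apart from 2210417A02Rik, given below, the named promoters called lower differed by less. Slbp, which binds the stem-loop of histone mRNA, had 41.7% and 42.6% in shCtrl-mESCs against 73.5% and 59.1% in YP-mESCs. Calr, an endoplasmic reticulum chaperone, had 6.90% and 6.93% against 25.6% and 28.5%. Mettl11a, a methyltransferase of protein N-termini, had 5.74% and 5.47% against 36.5% and 43.2% over 3 CpGs. The few CpGs per promoter, 3 to 12 among the 15 named, limit these values.

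Gpat2, a mitochondrial acyltransferase, had 13.2% and 21.3% against 39.5% and 36.0%. Kdm6b, a histone H3K27 demethylase, had 21.5% and 17% against 40.2% and 39.0% but was not called outside closely spaced CCGG, where its adjusted p was 0.0659. The noncoding 2210417A02Rik differed most, with 11.9% and 15.2% against 67.4% and 63.8%. Of the 15 lower promoters, 13 were called again outside these sites, all but Kdm6b and the predicted microRNA AC093451.1. The others named by the rule were Pla2g2d, AU018091, R3hdml, Hormad2, Mir1982, Gm17080, Gm13062 and 4833413E03Rik, 20.1 to 29.5 points lower.

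Gene bodies, from 500 bp after the start to the end and outside every promoter, were tested likewise. Of 8712 gene bodies, 637 (7.31%) were called higher in shCtrl-mESCs and 86 (0.987%) lower, and outside closely spaced CCGG 301 of 8313 (3.62%) and 70 (0.842%). The median difference was 3.29 points over all CpGs and 2.62 points outside these sites. The number of these calls too depended on how the overdispersion was set once an shCtrl-mESC library was left out. Without shCtrl-mESC replicate 1, the quasi-binomial F test called 1 higher and 0 lower, with 720 and 101 at an unadjusted p under 0.05 and 371 and 43 by a shared overdispersion. Without shCtrl-mESC replicate 2 it called 2 higher and 0 lower, with 718 and 93 unadjusted and 395 and 48 by a shared overdispersion. Without YP-mESC replicate 1 it called 295 and 28, and without YP-mESC replicate 2 it called 625 and 84.

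The body of Zfp316 was higher over 98 CpGs, with 37.5% and 37.4% in shCtrl-mESCs against 4.09% and 3.36% in YP-mESCs. Pnpla2, the adipose triglyceride lipase, had 65.6% and 65.2% against 34.2% and 30.4%. Scn1a, a neuronal sodium channel, had 87.5% and 92.7% against 56.5% and 57.9%. Cyp2c38, a cytochrome P450, had the largest rise, with 72.3% and 73.7% against 34.8% and 32.6% over 5 CpGs. Cyp2c38 and Mup6, a major urinary protein gene with 85.3% and 89.7% against 53.8% and 49.1%, belong to families of similar genes. Of the 10 named, Aldh3a1 alone could not be measured outside closely spaced CCGG, and the other 9 stayed called.

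Gene bodies called lower were led by Csrp2, with 10.9% and 9.51% in shCtrl-mESCs against 46.1% and 41.9% in YP-mESCs, and Zfp809, with 11.5% and 11.3% against 41.9% and 47.0%. Snrpd3, a core protein of the spliceosome, had 12.4% and 9.79% against 43.0% and 36.8%. Mpzl2, a cell adhesion protein, had 25.1% and 22.4% against 55.4% and 55.6%. Gsdma, a gasdermin, had 30.2% and 45.6% against 63.3% and 62.9%, with the shCtrl-mESC libraries 15 points apart. All 10 named, which also included Fbxo44, Cox4nb, Thrap3, Tmem186 and Mras, were called again outside closely spaced CCGG.

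Gene lists of pathways that are known to matter in mESCs showed small numbers of calls. Of 20 measured promoters of naive and core pluripotency genes, 0 were called higher and 2 lower by the quasi-binomial F test, against 4.14% and 0.483% of all promoters, and their median difference was -0.246 points against 1.06 over all promoters. Outside closely spaced CCGG the medians were nearer, -0.243 points against 0.101 over all promoters. The 2 were Prdm14, a repressor of de novo methylation in mESCs, with 5.23% and 6.76% in shCtrl-mESCs against 20.7% and 13.4% in YP-mESCs, and Tcl1, a coactivator of the kinase AKT, with 4.0% and 0.00% against 18.8% and 15.4% over 3 CpGs. In gene bodies 1 of 18 was higher and 1 lower, against 7.31% and 0.987% of all gene bodies. Zfp42, the pluripotency marker Rex1, had 2.82% and 3.42% against 15.7% and 16.4% over 15 CpGs and was called lower. Dppa3, which protects maternal methylation, had 51.5% and 42.9% against 15.9% and 24.7%, and its body could not be measured outside closely spaced CCGG. All 3 lower calls held outside these sites.

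Of 13 measured promoters of primed pluripotency genes, 0 were called by the quasi-binomial F test in either direction, against 4.14% higher and 0.483% lower of all promoters. Their median difference was 1.57 points over all CpGs and 0.0482 points outside closely spaced CCGG, against 1.06 and 0.101 over all promoters. Of the 8 measured gene bodies 0 were called, against 7.31% higher and 0.987% lower of all gene bodies. With so few members, 0 calls lie near these shares. Among 17 housekeeping promoters 0 were called, also near the 4.14% of all promoters called higher. The list's median difference was 1.04 points over all CpGs and 0.0218 points outside closely spaced CCGG. Rpl13a, a ribosomal protein gene, had 3.81% and 3.25% against 0.121% and 0.154% over all CpGs. Outside the sites it had 0.293% and 0.00% against 0.136% and 0.174%. The median promoter differences of both lists thus lay near 0 outside closely spaced CCGG.

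In the germline and meiosis list, whose promoters are known targets of methylation in somatic cells, 4 of 31 promoters were called higher (12.9%, against 4.14% of all promoters) and 4 lower (against 0.483%). Of the 31, 24 had levels over 20%, unlike most promoters. Among all promoters from 20% to 80%, 33.3% were called higher and 4.35% lower, so the share over all promoters is no measure for this list. Outside closely spaced CCGG 3 were higher and 2 lower, against 1.97% and 0.304% of all promoters. Sycp3, of the synaptonemal complex, had 62.9% and 69.6% in shCtrl-mESCs against 41.7% and 38.5% in YP-mESCs. Sohlh2, a germ cell transcription factor, had 80.5% and 81.0% against 64.0% and 56.8%. Rpl10l, a ribosomal protein gene of testis, had 73.1% and 79.5% against 47.5% and 32.3%. Hormad2, of the meiotic chromosome axis, moved the other way, with 16.6% and 11.2% against 30.7% and 37.3%. The list's median difference was 1.34 points over all CpGs and 0.111 points outside these sites, against 0.101 over all promoters there. In its 13 gene bodies the test called 0, against 7.31% higher and 0.987% lower of all gene bodies.

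Among lineage transcription factors, 6 of 54 promoters were called higher (11.1%, against 4.14% of all promoters) and 0 lower, and 3 of 52 outside closely spaced CCGG (against 1.97% of all promoters there). Hand1, a transcription factor of heart and trophoblast, had 35.8% and 34.2% in shCtrl-mESCs against 13.4% and 16.9% in YP-mESCs over 18 CpGs. Nkx2-5, of the heart, had 37.0% and 42.6% against 19.2% and 19.6%. Elf5, of trophoblast, had 80.7% and 89.7% against 68.6% and 58.1% over 3 CpGs, none of them outside these sites. Myod1, of muscle, had 49.3% and 54.5% against 38.5% and 33.5%, and was not called outside the sites, where its adjusted p was 0.0728. The list's median promoter differed by 2.30 points, and by 0.392 outside closely spaced CCGG.

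In the same list, 5 of 57 gene bodies were called higher (8.77%, against 7.31% of all gene bodies) and 0 lower, and all 5 were called outside closely spaced CCGG (5 of 55, against 3.62% of all gene bodies there). Gata3 had 46.2% and 46.1% in shCtrl-mESCs against 32.0% and 30.6% in YP-mESCs over 51 CpGs. Tbx5, of limb and heart, had 41.7% and 43.0% against 29.4% and 28.5% over 75 CpGs, and Gata2 had 37.3% in both shCtrl-mESC libraries against 24.9% and 26.8%. The list's median body differed by 3.07 points, close to the 3.29 of all gene bodies.

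Of 66 promoters of the Wnt pathway, 2 were called higher and 0 lower. Dkk2, a secreted modulator of Wnt receptors, had 26.0% and 24.6% in shCtrl-mESCs against 9.11% and 8.56% in YP-mESCs over 5 CpGs. Wnt2, a Wnt ligand, had 25.3% and 25.5% against 10.2% and 12.8% over 34 CpGs. The share of 3.03% called higher lay under the 4.14% of all promoters. In gene bodies, 7 of 53 (13.2%, against 7.31% of all gene bodies) were higher and 0 lower. Among them were the ligands Wnt11, with 49.1% and 51.1% against 28.6% and 30.4%, and Wnt10a, with 33.2% and 32.2% against 15.4% and 17.3%. The feedback inhibitor Notum had 87.7% and 88.6% against 70.1% and 69.8%, and Apc2, a relative of the tumour suppressor APC, had 61.3% and 59.3% against 44.8% and 45%. Outside closely spaced CCGG 6 of the 7 were called, of 53 measured there, against 3.62% of all gene bodies.

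In the list of DNA methylation machinery, 0 of 24 promoters were called higher and 1 lower, against 4.14% and 0.483% of all promoters. It was Tet1, an enzyme that oxidises methylcytosine, with 16.4% and 19.4% in shCtrl-mESCs against 35.8% and 36.0% in YP-mESCs over 4 CpGs, and it was called again outside closely spaced CCGG. Of 16 gene bodies 1 was called higher, against 7.31% of all. It was that of Dnmt3b, a de novo methyltransferase, with 92.8% and 92.9% against 81.3% and 81.9%. Outside these sites it had 92.9% and 93.4% against 89.4% and 89.1% and was not called, with an adjusted p of 0.245.

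Of 32 Hox promoters, 4 were called higher (12.5%, against 4.14% of all promoters) and 0 lower, and 2 of 31 outside closely spaced CCGG (against 1.97% of all promoters there). Hoxa6 had 33.4% and 33.9% in shCtrl-mESCs against 20.1% and 18.5% in YP-mESCs over 31 CpGs, and Hoxd12 had 35.2% and 36.1% against 24.9% and 23.2% over 19. Hoxa3 had 62.8% and 66.5% against 52.6% and 53.7% and was not called outside these sites. Hoxb6 was called on 3 CpGs with 30.3% and 0.00% against 1.39% and 1.28%, so that its libraries overlapped and the call rested on shCtrl-mESC replicate 1, without which the difference was -1.34 points. The body of Hoxd3 had 23.4% and 24.6% against 12.1% and 12.4% over 93 CpGs and was the only 1 of 30 called, against 7.31% of all gene bodies.

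Among imprinted genes, outside the control regions themselves, 1 of 27 promoters was called higher (3.70%, against 4.14% of all promoters) and 0 lower. It was Asb4, with 48.6% and 51.0% in shCtrl-mESCs against 26.5% and 24.4% in YP-mESCs over 5 CpGs. Of 26 gene bodies 1 was called higher, against 7.31% of all gene bodies. It was that of Slc22a18, an organic cation transporter, with 70.6% and 61.4% against 55.4% and 45.9%, and could not be measured outside closely spaced CCGG. In the neuronal list, 1 of 8 promoters was called higher and 1 lower, against 4.14% and 0.483% of all promoters. Snap25, of the synaptic fusion machinery, had 49.8% and 51.1% against 23.2% and 22.6% over 17 CpGs. Nefm, the medium neurofilament, moved the other way, with 23.8% and 25.5% against 39.0% and 43.7% over 30 CpGs. Both were called and both were called again outside these sites. Of 5 promoters and 5 gene bodies of clustered protocadherins, 0 were called by the quasi-binomial F test. Over all, 4.14% of promoters and 7.31% of gene bodies were called higher. Pcdhb1 had the largest difference among their bodies, 13.1 points, at an adjusted p of 0.0713.

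**Figure D4:**
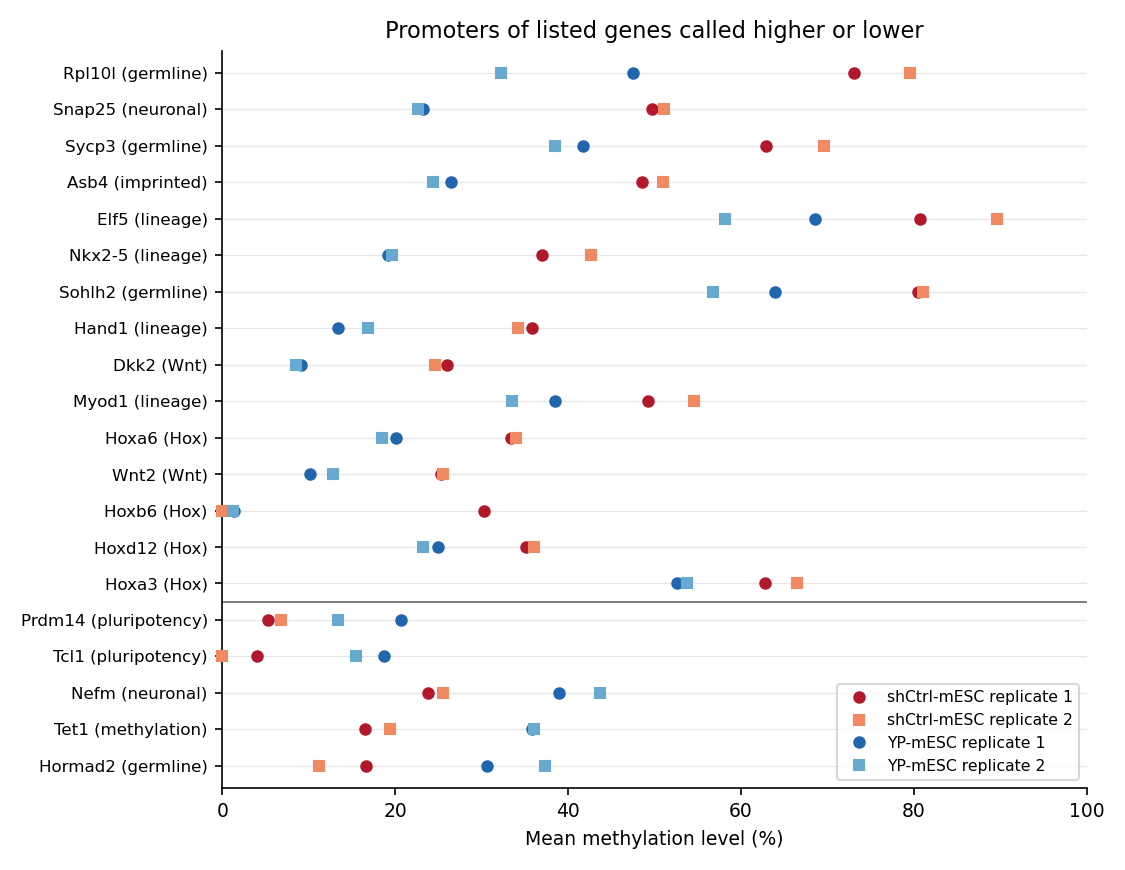
Mean methylation level (%, x axis) of promoters from the gene lists that were called higher (above the line) or lower (below it) in shCtrl-mESCs, up to 4 per list, in the 4 libraries. The groups overlap only at Hoxb6, where shCtrl-mESC replicate 1 has 30.3% and replicate 2 has 0.00%.

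The windows called outside closely spaced CCGG were also read in the other groups, as levels side by side. Of the higher windows, 950 were measured in all 16 libraries. Their median level was 72.3% and 72.8% in shCtrl-mESCs and 50.4% and 50.8% in YP-mESCs. It was 77.2% and 76.4% in shbcat-mESCs, 84.7% and 85.1% in shCtrl-EBs and 81.9% and 82.7% in shbcat-EBs. OP-mESCs had 42.8% and 42.9%, OP-S33Y #1 had 59.9% and 60.6%, and OP-S33Y #2 had 51.2% and 50.2%. Of the groups that did not enter the choice of windows, OP-mESCs were the lowest and the EBs the highest. The same held over all 17152 windows measured in the 16 libraries. There the mean level was 15.2% in both OP-mESC libraries and 23.9% to 24.6% in the EB libraries, so that the order was not particular to the windows called higher.

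Of the windows called lower, 218 were measured in all 16 libraries. Their median was 26.4% and 25.6% in shCtrl-mESCs and 44.4% and 46.1% in YP-mESCs. Of the other mESCs, OP-mESCs had 15.9% and 16.7%, and the medians were 33% and 30.6% in OP-S33Y #1, 28.9% and 27.5% in OP-S33Y #2 and 28.8% in both shbcat-mESC libraries. EBs had 76.7% to 78.9% at these windows. Since the windows were chosen for a difference between shCtrl-mESCs and YP-mESCs, their distance from each other is set by the choice, and the place of any other group above or below them is favoured by it.

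**Figure D5:**
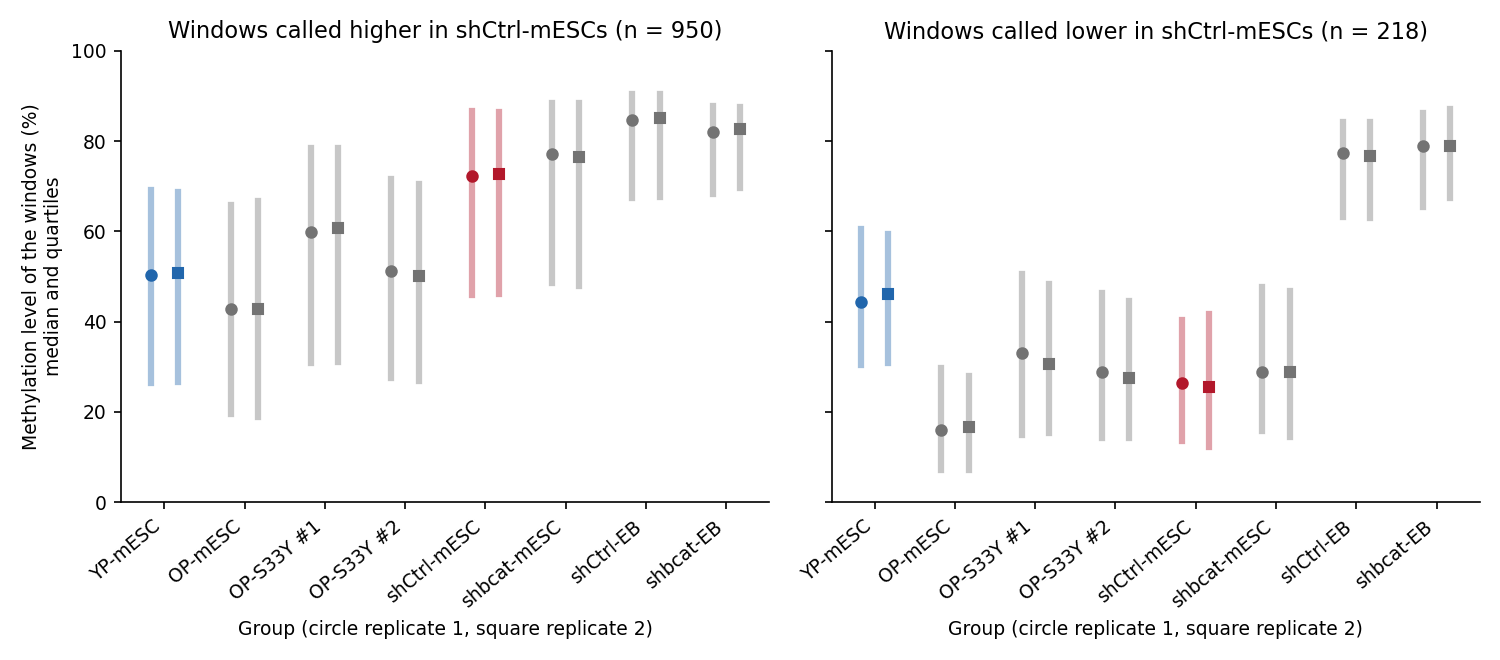
Methylation level (%, y axis) of windows called higher (left, 950 windows) or lower (right, 218 windows) in shCtrl-mESCs, in each of the 16 libraries by group (x axis). Points are medians and bars run from the first to the third quartile over windows, with closely spaced CCGG left out. At the higher windows the shbcat-mESC libraries have 77.2% and 76.4% and the OP-mESC libraries 42.8% and 42.9%, and at the lower windows the EB libraries have 76.7% to 78.9%.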

How the data were processed

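Bisulfite-converted DNA was measured by RRBS in 16 libraries, prepared per the labels with NuGEN Ovation kits. The restriction enzyme, and how its ends were handled, are not given in the sources used here. The submitters' processing notes name CASAVA 1.8.2, Trim Galore 0.2.8, Bismark 0.7.9 and the mm9 build. The authors deposited, for each cytosine of a CpG with at least 10 reads, the read count and the percent of reads with C and with T. Methylated read counts were rebuilt from the deposited percent and count values, and both strands were summed.

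A CpG was kept where each of the 4 libraries had 10 or more reads, and 255 CpGs in imprinting control regions were left out. Genes came from GENCODE M1. Levels are means over CpGs. Single CpGs were tested with a quasi-binomial model with a shared overdispersion of 1.1 and a chi-square test. Windows, promoters and gene bodies were tested with a quasi-binomial F test whose overdispersion was moderated with squeezeVar of limma 3.58.1 in R 4.3.3. Adjusted p-values are Benjamini-Hochberg over all features of a kind, with a threshold of 0.05 and a minimum difference of 25 points for CpGs and 10 points for the rest. Windows spanned 1000 bp with at least 5 CpGs. Promoters ran from 1000 bp before to 500 bp after a start and held at least 3 CpGs, and gene bodies held at least 5. Intermediate meant a mean of the 4 libraries from 20% to 80%. Python 3.11.15 with numpy 2.4.6, scipy 1.17.1, pandas 2.3.3, pysam 0.24.0 and matplotlib 3.10.9 was used, and the tests were tried on simulated reads. In a first setting, 65.5% of single CpGs changed by 40 points and 43% of windows changed by 20 points were recovered. After that run the CpG change was set to 50 points and the spread of windows was lowered, with window changes still of 20 points. Then 91% and 83.5% were recovered.

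The text names the called features with the largest differences whose groups do not overlap, 10 windows, 15 promoters and 10 gene bodies per direction, the 10 regions per direction with the most changed CpGs, and up to 4 members of each gene list. The members and gene lists were chosen with earlier results of these data known. The distance of 52 bp between CCGG sites was also chosen after the data were seen. Same-numbered libraries of the groups did not deviate together (r = 0.00295 across CpGs), so the numbers were not treated as pairs. Alternatives were other read minimums, differences, CpG numbers and weights, leaving out each library, and leaving out CCGG sites. Intervals of single values cover counting error only and are not given, since PCR reads are not independent molecules.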

Additional observations from a re-analysis of the deposited data

How the results depend on the processing

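The sizes of the call sets moved with the processing, and counts are given as higher and then lower. Stricter minimums of reads or CpGs, and leaving out CCGG sites, also lowered the numbers of features tested, so the counts are not shares. With a minimum of 20 reads, 8092 CpGs were higher and 1415 lower, with 1391 and 315 windows. This minimum left out the 272709 CpGs that had 10 to 19 reads in the shallowest library. In the main fit, 2.22% of the 339579 CpGs with 20 to 49 reads there were called higher and 0.385% lower. Of the windows called with a minimum of 20 reads, 933 and 240 were intermediate, 185 and 72 under 20%, and 273 and 3 over 80%. By density they were 191 and 89 under 20 CpGs, 1045 and 212 at 20 to 49, and 155 higher at 50 or more, and there were 18 and 2 regions. CpGs over 10 points numbered 32827 and 4197, and with no minimum difference 33444 and 4553, with 12549 and 1216 windows. Windows over 25 points numbered 456 and 56, and those with at least 10 CpGs 649 and 85. Regions numbered 437 and 40 with at least 5 changed CpGs, 27 and 3 with more than 30 points, and 16 and 1 with every library over 25 points apart. Promoters with at least 5 CpGs gave 44 lower calls, gene bodies with equal weight for each CpG 144 lower calls, and windows from 30% to 70% 1190 higher calls. With density taken from the CpGs seen, the classes had 2780 and 600, 308 and 24, and 8 and 3 calls. Without closely spaced CCGG, added after the data were seen, the counts were 5298 CpGs higher, 144 windows under 20% higher, 5 over 80% lower, 336 sparse and 149 dense windows higher, 272 and 42 promoters, and 301 gene bodies higher. Without any CCGG, also added, there were 3677 and 653 CpGs, 1146 and 164 windows, 24 and 2 regions, 222 and 26 promoters, and 292 and 45 gene bodies. The windows were 801 and 122 at intermediate levels, 132 and 42 under 20%, 213 and 0 over 80%, 80 and 21 in the sparse, 938 and 123 in the middle, and 128 higher in the dense class. The Rpl13a promoter, not called, had -0.00834 points without closely spaced and -0.0089 without any CCGG, and the Hoxb6 promoter ran from -1.34 without shCtrl-mESC replicate 1 to 21.7 with other libraries left out. Leaving out each library gave a mean difference of 2.51 to 2.64 points, 11789 to 15913 and 1305 to 1478 CpGs, 1959 to 3804 and 289 to 747 windows, 61 to 102 and 5 to 7 regions, 0 to 595 and 0 to 73 promoters, and 1 to 625 and 0 to 84 gene bodies. Intermediate windows then had 6.03 to 6.69 points, with 1300 to 2138 and 231 to 501 calls, those under 20% had 1.08 to 1.43, with 301 to 370 and 56 to 235, and those over 80% had 4.41 to 5.27, with 293 to 1365 and 2 to 11. The density classes had 3.21 to 3.28, 4.01 to 4.12 and 1.64 to 1.82 points, with 294 to 837 and 88 to 265, 1458 to 2739 and 190 to 455, and 200 to 274 and 11 to 27 calls. With the replicate number as a block, although the numbers did not pair the libraries, 16394 and 2273 CpGs, 3013 and 606 windows, 525 and 57 promoters and 805 and 114 gene bodies were called. Why the counts moved was not tested. With 2 libraries a group and a median of 29 to 36 reads per CpG, differences near the 10-point minimum are the least certain.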

Other observations

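Chromosome 13 was compared without YP-mESC replicate 2, which had no CpG there. Outside closely spaced CCGG, 1137 windows could be measured, of which 97 were called higher in shCtrl-mESCs and 15 lower. The 167 intermediate windows had 54.5% and 54.7% in the shCtrl-mESC libraries against 48.0% in YP-mESC replicate 1, with 59 higher and 10 lower. The single YP-mESC library is assumed to vary like the others.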
